A study of Homo sapiens with 48 samples.

Results

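The genes described here are 8 genes of cholesterol synthesis and its control by the transcription factor SREBP2: HMGCS1, IDI1, FDFT1, SQLE, CYP51A1, DHCR7, SREBF2 and INSIG1. They were found by gene name among the 19847 entries of the deposited expression table, and all 8 passed the filter on low counts that kept 9991 genes for testing. CYP51A1 was selected on measured values, its fall and its wide spread between libraries after SF3B1 knockdown, so its values in those comparisons are a description without a test. The other 7 genes were taken because they belong to the same pathway, on a list drawn up with earlier results of these data known.

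Cells make cholesterol from acetyl-CoA through mevalonate, isoprenoid units, squalene and lanosterol. SREBP2, the product of SREBF2, drives transcription of nearly all enzymes of this route, and it is held inactive in the endoplasmic reticulum, through SCAP and INSIG proteins, while membrane sterol is plentiful. INSIG1 is itself a target of SREBP2, so the pathway carries its own brake, and fibroblasts use both synthesis and uptake from serum lipoproteins to meet their need for sterol.

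RNA-seq was performed on IMR90 cells, a human fetal lung fibroblast line, carrying ER:RAS G12V, an oncogenic HRAS fused to an oestrogen receptor domain that 4-hydroxytamoxifen (4OHT) switches on. Cultures were given 4OHT, which drives these cells into oncogene-induced senescence, or the solvent DMSO for 6 days, and were then transfected with siRNA and kept for 2 more days in 0.5% FBS. All 6 groups carried the construct and had the low-serum period, so no group lacked either. Each treatment was combined with non-targeting siRNA (siNT1 or siNT2), siRNA against the splicing factor SF3B1 (siSF3B1-13 or siSF3B1-16), or siRNA against the splicing factor RBM39 (siRBM39-06 or siRBM39-08), with 4 libraries for each siRNA and treatment and hence 8 libraries for each of 6 groups, 48 in all. For 4 of the 4OHT libraries the title says siNT2 and the treatment label says siNT1, and the titles were followed. The question was which transcripts change when either splicing factor is depleted, with and without RAS activation. The study's methods call in vitro replicates separate experiments, while the labels do not mark which libraries share a culture. The p-values therefore measure the spread between these libraries, part of which may be technical. Each target had only 2 siRNAs, and in the 6 groups the libraries of both were pooled as 8 replicates. The p-values of these groups do not measure how a result would vary over other siRNAs against the same target.

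The upstream sequence is printed for 3 of the genes because they encode the factor, its brake and the first enzyme of the route measured here. Sequences are the 250 bases before an annotated start of transcription, from RefSeq on GRCh38.p14, read 5′ to 3′ on the strand of the gene. They are SREBF2 chr22:41832855-41833104 (+), INSIG1 chr7:155297628-155297877 (+) and HMGCS1 chr5:43313413-43313662 (−). Capitals mark matches on either strand to the sterol regulatory element motif TCACNCCAC, the CCAAT box or the GC box GGGCGG, the last 2 being binding motifs of NF-Y and Sp1 that are known to work beside SREBPs.
SREBF2: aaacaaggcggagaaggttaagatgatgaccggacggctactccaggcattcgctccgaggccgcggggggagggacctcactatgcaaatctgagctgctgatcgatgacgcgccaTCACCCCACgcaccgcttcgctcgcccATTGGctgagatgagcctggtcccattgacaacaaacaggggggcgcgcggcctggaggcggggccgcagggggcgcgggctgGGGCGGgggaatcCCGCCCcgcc
INSIG1: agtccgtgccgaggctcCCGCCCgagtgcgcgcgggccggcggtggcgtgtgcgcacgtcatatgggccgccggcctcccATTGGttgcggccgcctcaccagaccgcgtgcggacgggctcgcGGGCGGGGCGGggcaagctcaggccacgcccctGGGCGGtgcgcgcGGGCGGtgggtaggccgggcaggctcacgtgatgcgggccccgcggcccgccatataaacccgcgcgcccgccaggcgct
HMGCS1: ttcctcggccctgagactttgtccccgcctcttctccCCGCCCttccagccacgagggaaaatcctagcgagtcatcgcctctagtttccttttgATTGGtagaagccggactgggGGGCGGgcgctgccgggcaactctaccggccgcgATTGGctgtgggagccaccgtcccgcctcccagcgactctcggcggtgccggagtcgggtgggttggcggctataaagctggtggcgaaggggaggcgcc
In SREBF2 the match TCACCCCAC began 133 bases before the start site, a CCAAT box on the reverse strand (ATTGG) lay 106 bases before it, and GC boxes lay at 23 and 10 bases. In INSIG1, GC boxes were found at 233, 126, 121, 93 and 80 bases, those at 126 and 121 overlapping, with a CCAAT box at 170 bases. In HMGCS1, CCAAT boxes lay at 155 and 100 bases and GC boxes at 213 and 134 bases. HMGCS1 has another annotated start, at 43313181. The window before that start, which is not printed, had GC boxes at 127 and 8 bases and no CCAAT box. Of the 8 genes, 6 were in the promoter table, and only SREBF2 among them had a TCACNCCAC match, a motif present in 0.883% of 35116 windows of this length. CCAAT was present in 32.01% and GGGCGG in 42.6% of the windows, so matches to these shorter motifs are common.

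Libraries held 31467221 to 52734636 counts, with a median of 39656598. Each siRNA lowered its target in every library. Levels of a gene across libraries are given as CPM, counts scaled to library size. SF3B1 averaged 359 ± 25.5 CPM (SD, n = 8) in DMSO siNT libraries and 32.8 ± 1.57 in DMSO siSF3B1 libraries, and 328 ± 8.26 and 27.3 ± 1.90 in 4OHT. RBM39 fell from 170 ± 9.77 to 27.4 ± 2.18 CPM in DMSO and from 120 ± 4.31 to 16.3 ± 1.73 in 4OHT after siRBM39. Of 8 fibroblast markers the summed level was 51970 to 59092 CPM in DMSO siNT and 14364 to 15169 in 4OHT siNT libraries, whereas 4 leukocyte markers summed to at most 0.532 CPM and 2 endothelial markers to at most 1.85 CPM in any library, with CD3E at 0 in 46 and PTPRC in 25 of 48 libraries. One library stood apart: 4OHT siRBM39-08 replicate 4 had 34.02 CPM of 4 epithelial markers, against at most 10.5 in any other library, of which KRT5 gave 30.2, and SFTPC was at 0 in 43 of 48 libraries. SREBF2, IDI1, HMGCS1 and the siRBM39 counts of the 8 genes that changed without this library are given both ways. In bulk RNA a lower level cannot be told apart as fewer cells expressing a gene or as less RNA per cell.

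Per unit length of transcript, FDFT1 was the most abundant of the genes in both treatments. Levels between genes are compared here as cRPKM, the deposited unit, an RPKM corrected for mappable length. In DMSO siNT libraries the mean was 139 ± 5.52 cRPKM (SD, n = 8) for FDFT1, which encodes squalene synthase, and 90.0 ± 6.45 for DHCR7, the last reductase of the route. SREBF2 followed at 73.7 ± 2.39, and the lowest was IDI1 at 62.1 ± 2.34. The ranges of FDFT1, DHCR7 and SREBF2 did not overlap, while each later neighbour in the order SREBF2, SQLE, INSIG1, CYP51A1, HMGCS1 and IDI1 overlapped with the next. In 4OHT siNT libraries the order was FDFT1 (166 ± 3.15 cRPKM), DHCR7 (109 ± 3.35), IDI1 (93.3 ± 2.51), SQLE (78.7 ± 1.92), CYP51A1 (75.9 ± 2.27), SREBF2 (62.2 ± 1.07), INSIG1 (58.8 ± 5.55) and HMGCS1 (52.5 ± 1.69). Here SQLE overlapped with CYP51A1, SREBF2 with INSIG1 and INSIG1 with HMGCS1, and the other neighbours were separate.

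RAS activation alone moved the pathway in both directions. With non-targeting siRNA, 5 of 8 genes passed the test between 4OHT and DMSO, beside 78.1% of all genes tested: IDI1, FDFT1 and DHCR7 rose, and HMGCS1 and SREBF2 fell. IDI1, which converts isopentenyl to dimethylallyl diphosphate, ranged from 129 to 144 CPM with a median of 140 in DMSO and from 199 to 217 with a median of 209 in 4OHT. The groups were far apart, a log2 fold change of 0.59 (adjusted p = 4.16e-07, edgeR quasi-likelihood test with Benjamini-Hochberg adjustment over all genes, used throughout for expression). FDFT1 rose by 0.26 (adjusted p = 0.00134) and DHCR7 by 0.28 (adjusted p = 2.46e-05) on the log2 scale. The FDFT1 call was lost with siNT2 alone (adjusted p = 0.0831). SREBF2 went from 361, 380 and 391 CPM (lowest, median, highest) to 311, 322 and 326, a change of −0.24 (adjusted p = 3.17e-05). HMGCS1, the cytosolic HMG-CoA synthase, changed by −0.24 (adjusted p = 0.0269), a call that was lost without replicate 2, 3 or 4. That call was also lost with siNT1 alone (adjusted p = 0.319), siNT2 alone (adjusted p = 0.0873) or no filter on low counts (adjusted p = 0.144). CYP51A1, lanosterol demethylase, went from 174, 191 and 197 to 213, 225 and 232 CPM. Although these groups did not overlap, the change of 0.24 did not pass (SE 0.149, adjusted p = 0.141) in the fit that shares 1 spread over all 6 groups, among them siSF3B1, where CYP51A1 varied widely. When only the siNT libraries were fitted, the change was 0.23 (adjusted p = 1.13e-08) and 8 of 8 genes passed, beside 89.0% of all genes in that fit. SQLE, the squalene epoxidase, and INSIG1 overlapped between treatments, with changes of 0.11 (adjusted p = 0.185) and −0.15 (adjusted p = 0.187).

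**Figure D1:**
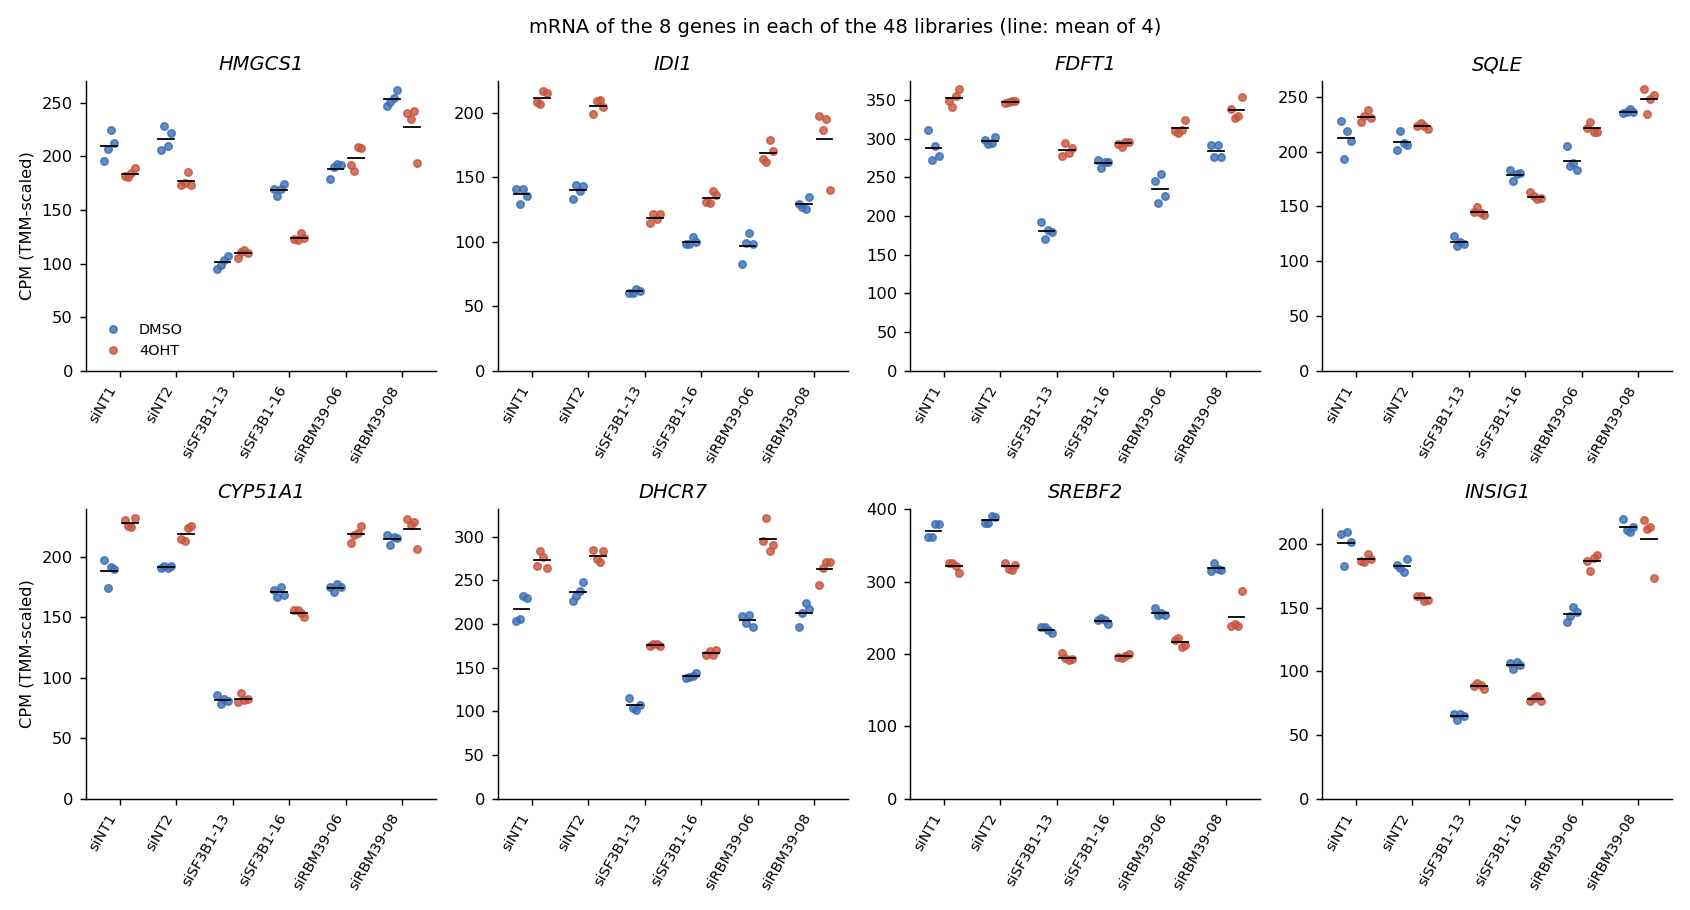
CPM of each of the 8 genes in every library, one panel per gene, with libraries placed by siRNA (DMSO in blue, 4OHT in red) and a line at the mean of the 4 libraries of one siRNA and treatment. The siSF3B1 libraries lie lowest for most genes, and for CYP51A1 the 8 siSF3B1-13 libraries sit between 78.1 and 87.1 CPM, apart from the 8 siSF3B1-16 libraries.

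SF3B1 depletion lowered the mRNA of all 7 tested genes in both treatments. All 7 genes tested fell in DMSO, beside 36.2% of all genes tested that were called lower, and all 7 fell in 4OHT, beside 37.6%. The median log2 fold change of the 7 was −0.66 in DMSO and −0.68 in 4OHT, against 0.02 and 0.03 over all genes. The siSF3B1 and siNT libraries did not overlap for 6 of the 7 in DMSO, FDFT1 being the exception, beside 54.9% of all genes, and for 7 of 7 in 4OHT, beside 68.9%. Every one of these calls held under each alternative that was run, including leaving out any replicate number and using either siRNA alone. The siNT libraries are the same in all comparisons within a treatment, so comparisons that share them are not independent.

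Among regulators, INSIG1 had the largest fall of the 7 in both treatments. In DMSO it ranged from 178 to 210 CPM with siNT (median 186) and from 61.5 to 107 with siSF3B1 (median 84.4). In 4OHT the values were 155 to 192 (median 173) and 76.4 to 90.8 (median 83.5). The siSF3B1 libraries lay below all siNT libraries, for a log2 fold change of −1.17 (adjusted p = 1.4e-13) in DMSO, and of −1.05 (adjusted p = 2.79e-12) in 4OHT. SREBF2, the source of the factor itself, lay between 361 and 391 CPM with siNT in DMSO and between 229 and 249 with siSF3B1, with medians of 380 and 239. In 4OHT the range was 311 to 326 with siNT and 192 to 201 with siSF3B1. Its libraries were tightly grouped, the siSF3B1 SD being 7.32 CPM in DMSO and 3.40 in 4OHT, and the log2 fold changes were −0.66 (adjusted p = 2.9e-16) and −0.71 (adjusted p = 1.32e-17).

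Among enzymes, those up to squalene fell by 0.27 to 0.78 on the log2 scale. HMGCS1 lay between 196 and 228 CPM with siNT in DMSO and between 95.4 and 174 with siSF3B1 (medians 211 and 135). In 4OHT it ranged from 173 to 189 with siNT and from 105 to 128 with siSF3B1. The groups were separate in each treatment, and HMGCS1 changed by −0.66 in DMSO (adjusted p = 1.35e-07) and by −0.62 in 4OHT (adjusted p = 3.29e-07) on the log2 scale. IDI1 had medians of 140 CPM with siNT and 80.9 with siSF3B1 in DMSO, and of 209 and 126 in 4OHT, with changes of −0.78 (adjusted p = 1.43e-09) and −0.72 (adjusted p = 6.12e-09). FDFT1, which commits carbon to sterols by joining farnesyl units into squalene, changed least of the 7. Its siNT libraries ranged from 273 to 311 CPM and its siSF3B1 libraries from 171 to 273 in DMSO, where the groups met, and from 341 to 365 and 278 to 296 in 4OHT, where they did not. The log2 fold changes were −0.38 (adjusted p = 1.13e-05) and −0.27 (adjusted p = 0.00084).

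After squalene, SQLE and DHCR7 fell as well. SQLE, which makes the epoxide that is closed into lanosterol, went from a median of 209 CPM (range 193 to 228) to 148 (114 to 183) in DMSO and from 226 to 153 in 4OHT, a log2 fold change of −0.50 in DMSO (adjusted p = 2.4e-07) and of −0.58 in 4OHT (adjusted p = 7.64e-09). DHCR7 went from a median of 231 CPM (203 to 248) to 127 (101 to 144) in DMSO and from 275 (265 to 285) to 172 (165 to 177) in 4OHT. No siSF3B1 library reached the lowest siNT library for either gene, and DHCR7 changed by −0.88 (adjusted p = 3.04e-18) and −0.68 (adjusted p = 8.7e-15). CYP51A1, the gene picked for this contrast, had 78.1, 126 and 175 CPM (lowest, median, highest) in DMSO siSF3B1 libraries, which just met the siNT range of 174 to 197. In 4OHT it had 80.03, 118 and 156 CPM, below all siNT libraries (213 to 232). Its mean was 66.5% of the siNT mean in DMSO and 52.8% in 4OHT, log2 fold changes of −0.59 and −0.92.

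**Figure D2:**
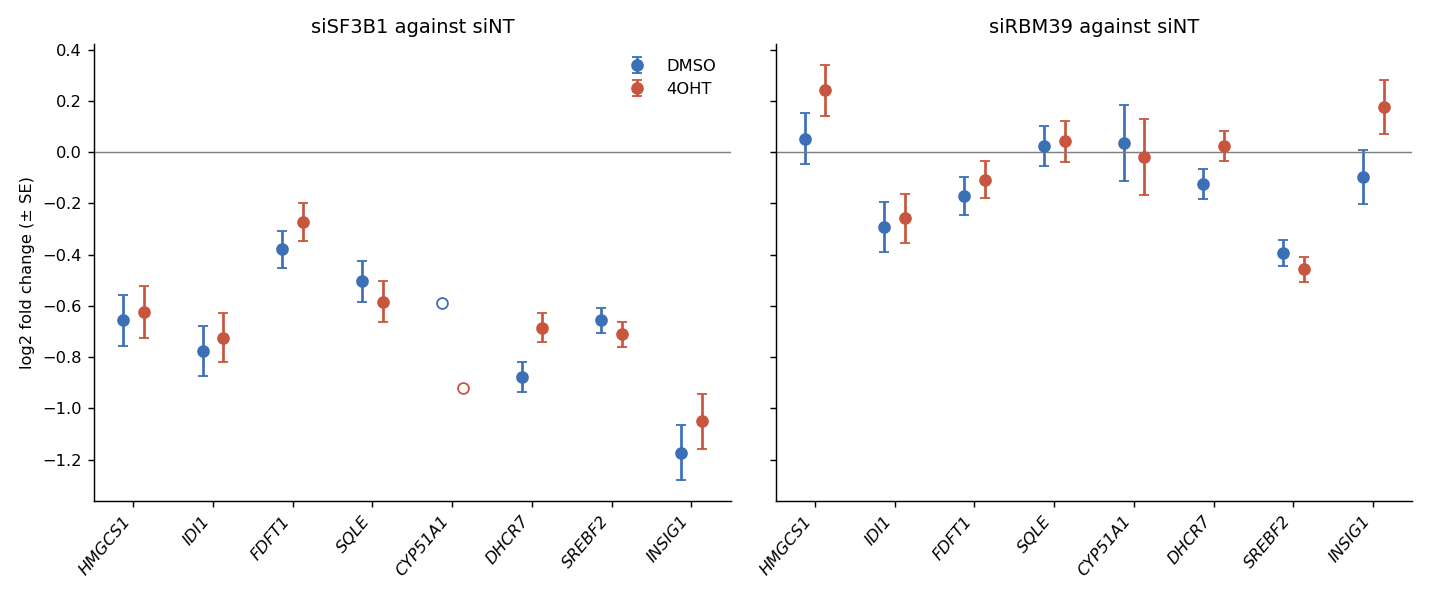
Log2 fold change against siNT with its standard error for each of the 8 genes, after siSF3B1 and after siRBM39, in DMSO and in 4OHT. The 7 tested genes lie below 0 after siSF3B1 in both treatments (−0.27 to −1.17), CYP51A1 is drawn as an open symbol without error because it was picked on this contrast, and after siRBM39 SREBF2 lies lowest at −0.39 and −0.46.

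The wide spread of several genes after siSF3B1 divided by siRNA. For CYP51A1 in DMSO, the siSF3B1-13 libraries had 86.0, 78.1, 82.7 and 80.5 CPM and the siSF3B1-16 libraries 173, 167, 175 and 168. In 4OHT they had 80.03, 87.1, 81.2 and 82.1 CPM with siSF3B1-13 and 156, 156, 154 and 150 with siSF3B1-16. Within an siRNA the SD was at most 3.74 CPM, and the sets of 4 were far apart. As a share of the siNT mean, CYP51A1 stood at 43.1% with siSF3B1-13 and 89.9% with siSF3B1-16 in DMSO, and at 36.9% and 68.7% in 4OHT. SF3B1 mRNA itself was at 31.6 ± 1.10 CPM with siSF3B1-13 and 33.96 ± 0.88 with siSF3B1-16 in DMSO (n = 4 each) and at 27.6 ± 1.32 and 26.9 ± 2.52 in 4OHT. The part of the residual SF3B1 level in the difference between the siRNAs was not tested.

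In DMSO the same order of the siRNAs was found for other enzymes. Between siSF3B1-13 and siSF3B1-16, 6 of 7 tested genes were lower with siSF3B1-13, beside 37.3% of all genes called in either direction. HMGCS1 had 95.4, 98.8, 103 and 107 CPM with siSF3B1-13 and 169, 163, 170 and 174 with siSF3B1-16, a log2 difference of −0.74 (adjusted p = 2.02e-15). INSIG1 had 66.7, 61.5, 66.7 and 64.9 against 107, 102, 107 and 105 CPM, a difference of −0.70 (adjusted p = 6.79e-16). FDFT1 had 192, 171, 182 and 180 against 273, 262, 270 and 270 CPM, a difference of −0.57 (adjusted p = 4.4e-15). The sets of 4 did not overlap for any of these genes, and FDFT1 stood at 61.9% of the siNT mean with siSF3B1-13 and 91.9% with siSF3B1-16. IDI1, SQLE and DHCR7 differed by −0.70, −0.60 and −0.39. SREBF2 was the exception: 237, 236, 232 and 228 CPM with siSF3B1-13 and 246, 249, 246 and 242 with siSF3B1-16, or 61.8% and 65.1% of the siNT mean. That difference of −0.07 did not pass (adjusted p = 0.111).

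In 4OHT the differences between the siRNAs ranged from −0.18 to 0.18 over the 7 tested genes, against −0.74 to −0.07 in DMSO. Here 4 of 7 tested genes passed, beside 27.9% of all genes, with HMGCS1, SQLE and IDI1 lower and INSIG1 higher with siSF3B1-13. HMGCS1 had 105, 111, 113 and 110 CPM with siSF3B1-13 and 123, 122, 128 and 124 with siSF3B1-16, a difference of −0.18 (adjusted p = 0.00528). INSIG1 was reversed, with 88.3, 90.8, 89.5 and 86.1 against 76.4, 79.0, 80.9 and 76.9 CPM, a difference of 0.18 (adjusted p = 0.00237). FDFT1 differed by −0.04 (adjusted p = 0.508) and SREBF2 by −0.02 (adjusted p = 0.792), while CYP51A1 still differed by −0.90. Without replicate 3, the count of 4 fell to 2.

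The difference between the siRNAs was also compared between treatments, a contrast chosen after these values were seen. The siSF3B1-13 minus siSF3B1-16 difference was higher (less negative, or positive) in 4OHT than in DMSO for 6 of 7 tested genes, beside 11.3% of all genes called in either direction. The shift was 0.88 for INSIG1 (adjusted p = 6.73e-13), 0.56 for HMGCS1 (adjusted p = 1.87e-07) and 0.53 for FDFT1 (adjusted p = 4.29e-09) on the log2 scale. SREBF2 shifted by 0.06 (adjusted p = 0.633), and CYP51A1 by 0.16, given without a test. The count was 6 in each of the alternatives run for this contrast. The non-targeting pair differed little: 0 of 8 genes passed between siNT1 and siNT2 in DMSO, beside 1.63% of all genes (2 at an unadjusted p under 0.05 in edgeR), and 1 of 8 in 4OHT, beside 0.350%. That gene was INSIG1, with 187, 186, 192 and 188 CPM with siNT1 and 159, 160, 155 and 156 with siNT2, a difference of 0.26 (adjusted p = 0.00176).

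**Figure D3:**
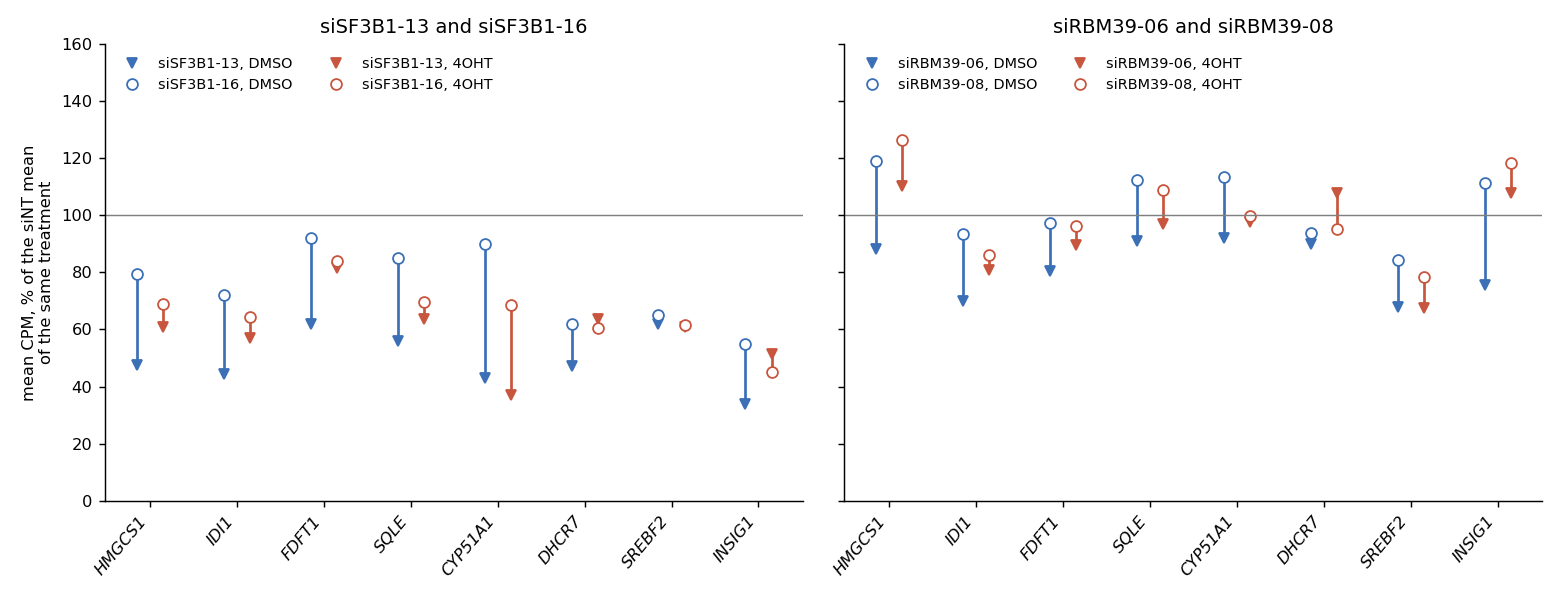
Mean CPM of each gene with each targeting siRNA as a percentage of the siNT mean of the same treatment, n = 4 libraries per point. CYP51A1 stands at 43.1% and 89.9% with the siSF3B1 siRNAs in DMSO, whereas SREBF2 stands at 61.8% and 65.1%.

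After RBM39 depletion SREBF2 fell in both treatments, and most of the other genes did not pass the test. In DMSO 2 of 8 genes passed, beside 46.1% of all genes, and both were lower: SREBF2 and IDI1. When 4OHT siRBM39-08 replicate 4 was left out of the fit, the DMSO count was 3, beside 55.9% of all genes. The gene added was FDFT1 (−0.17, adjusted p = 0.0403). In 4OHT 3 of 8 passed, beside 56.4%, with SREBF2 and IDI1 lower and HMGCS1 higher. The median log2 fold change of the 8 was −0.11 in DMSO and 0.00 in 4OHT, against 0.02 and 0.05 over all genes. Both shares lie below the background of these comparisons.

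SREBF2 was the gene that moved furthest. Its siRBM39 libraries ranged from 254 to 326 CPM in DMSO (median 289), against 361 to 391 with siNT, and from 210 to 287 in 4OHT (median 230), against 311 to 326. The groups did not overlap, and the log2 fold changes were −0.39 (adjusted p = 4.93e-09) and −0.46 (adjusted p = 6.76e-11). Each siRNA alone gave a fall, to 67.9% of the siNT mean with siRBM39-06 and 84.3% with siRBM39-08 in DMSO and to 67.4% and 78.4% in 4OHT. The highest 4OHT value, 287, was siRBM39-08 replicate 4, the library with the high KRT5 level, and without it the change was −0.50 (adjusted p = 7e-14). IDI1 ranged from 83.0 to 135 CPM in DMSO (median 116), against 129 to 144 with siNT, and from 140 to 197 in 4OHT (median 175), against 199 to 217. These groups met in DMSO and were separate in 4OHT, with changes of −0.29 (adjusted p = 0.0123) and −0.26 (adjusted p = 0.0209). The lowest 4OHT value was again siRBM39-08 replicate 4, and without that library the change was −0.22 (adjusted p = 0.0474). The 4OHT call was lost without replicate 2 (adjusted p = 0.0659) or replicate 4 (adjusted p = 0.115) of all groups. It was also lost with siNT1 alone (adjusted p = 0.0533), siNT2 alone (adjusted p = 0.145) or siRBM39-08 alone (adjusted p = 0.0737). The DMSO call was lost with siNT1 alone (adjusted p = 0.103) or siNT2 alone (adjusted p = 0.0630). In DMSO only siRBM39-06 alone gave a called fall of IDI1 (−0.52, adjusted p = 7.3e-05), against −0.09 with siRBM39-08 (adjusted p = 0.527).

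HMGCS1 was at 186, 208 and 242 CPM (lowest, median, highest) in 4OHT siRBM39 libraries, against 173, 181 and 189 with siNT. The groups overlapped at their edges, and the rise of 0.24 (adjusted p = 0.0367) was lost without replicate 1, 2 or 3, with adjusted p from 0.049 to 0.127 when replicate numbers were left out in turn. It was lost as well with siNT1, siNT2 or siRBM39-06 alone (adjusted p = 0.262, 0.107 and 0.268) and with no filter on low counts (adjusted p = 0.0569). Without siRBM39-08 replicate 4 in 4OHT the rise was 0.26 (adjusted p = 0.0261). Between siRBM39-06 and siRBM39-08, 7 of 8 genes were lower with siRBM39-06 in DMSO, beside 25.2% of all genes called lower. In 4OHT 6 of 8 differed, beside 31.6% of all genes called in either direction. Of these 6, 5 were lower and DHCR7 was higher. The 4OHT count was 2 without replicate 2 and 4 with no filter on low counts. INSIG1 stood at 75.5% of the siNT mean with siRBM39-06 and 111% with siRBM39-08 in DMSO, a difference of −0.56 (adjusted p = 2.39e-13), and HMGCS1 at 88.3% and 119% (−0.43, adjusted p = 3.41e-09). CYP51A1 averaged 174 ± 2.77 CPM with siRBM39-06 and 215 ± 3.69 with siRBM39-08 in DMSO (n = 4, a difference of −0.30, adjusted p = 3.06e-09), on either side of the siNT mean of 190 CPM. In 4OHT it averaged 219 ± 6.09 and 223 ± 11.2 CPM (−0.03, adjusted p = 0.507), and the siRBM39 groups as a whole did not differ from siNT beyond their spread in DMSO (0.04, adjusted p = 0.862) or 4OHT (−0.02, adjusted p = 0.93). The siRBM39-06 minus siRBM39-08 difference was higher in 4OHT than in DMSO for 7 of 8 genes, beside 41.3% of all genes called in either direction, also a contrast chosen after the values were seen. It was 8 of 8 without siRBM39-08 replicate 4 in 4OHT and 4 to 6 when replicate numbers were left out in turn.

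With both siRNAs of a target pooled, neither knockdown effect was called different between treatments for these genes. For siSF3B1, the effect in 4OHT minus that in DMSO ranged from −0.08 to 0.19 on the log2 scale over the 7 tested genes, with 0 called by edgeR, beside 37.8% of all genes. DHCR7 was nearest to a call at 0.19 (adjusted p = 0.0558), and it was the 1 gene called by DESeq2 and by limma-voom. For CYP51A1 the same contrast was −0.33, given without a test. For siRBM39 it ranged from −0.06 to 0.27, with 0 of 8 called beside 14.1% of all genes and a lowest adjusted p of 0.237 for INSIG1. At an unadjusted p under 0.05 the counts were 1 and 0, and DESeq2 and limma-voom called 0 genes for siRBM39. With siSF3B1-13 alone, 5 of 7 genes were called for the siSF3B1 contrast, beside 35.8% of all genes, and with siSF3B1-16 alone 1, beside 27.3%. The siRNAs went in opposite directions. HMGCS1, IDI1, INSIG1, FDFT1 and DHCR7 ranged from 0.32 to 0.57 with siSF3B1-13 alone, all called. With siSF3B1-16 alone the same genes ranged from −0.30 to −0.04, none called. SQLE was at 0.15 with siSF3B1-13 alone and at −0.30, called, with siSF3B1-16 alone.

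Most other enzymes of the route to cholesterol also had lower mRNA after siSF3B1. Of 14 further enzymes of the sterol pathway that were tested, 12 fell and 0 rose in each treatment, beside the 36.2% and 37.6% of all genes that were lower in DMSO and 4OHT, with a median log2 fold change of −0.88 in DMSO and −0.88 in 4OHT. MVD, mevalonate diphosphate decarboxylase, changed by −1.63 in DMSO and −1.82 in 4OHT (adjusted p = 3.51e-11 and 1.55e-12), and MVK, mevalonate kinase, by −1.08 and −1.59. TM7SF2, a sterol C14 reductase, changed by −2.06 and −1.80. The exceptions were PMVK, phosphomevalonate kinase, at 0.15 and 0.27, and SC5D at 0.02 and −0.04. After siRBM39, 7 of the 14 fell in DMSO and 6 in 4OHT, beside 22.2% and 24.3% of all genes called lower, with medians of −0.21 and −0.16, and TM7SF2 fell by 1.38 (adjusted p = 4.13e-12) and 1.24 (adjusted p = 5.36e-11). RAS activation alone raised 6 and lowered 3 of the 14, beside 78.1% of all genes called in either direction. The counts in DMSO after siRBM39 and for RAS activation depended on the siRNA: with the members included, the list of 20 enzymes had 8 calls after siRBM39 in DMSO and 13 with siRBM39-06 alone, and 13 calls for 4OHT against DMSO and 8 with siNT2 alone.

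SREBPs are escorted and cleaved by a small set of proteins before they enter the nucleus. The list of these proteins also held SREBF1, which encodes an SREBP itself. Of its 5 genes tested besides SREBF2 and INSIG1, 2 fell in each treatment after siSF3B1, SREBF1 and MBTPS1. After siRBM39 4 of them fell, and 0 rose after either knockdown, against the same background shares of lower genes. MBTPS1, the first protease to cleave SREBPs, changed by −0.12 in DMSO and −0.17 in 4OHT after siSF3B1 and by −0.14 and −0.25 after siRBM39. MBTPS2, the second, changed by −0.47 and −0.49 after siRBM39 (adjusted p = 5.6e-07 in 4OHT). The 8 fatty acid synthesis genes under SREBP1 control all fell after siSF3B1 in both treatments, where 36.2% and 37.6% of all genes were lower, with medians of −1.25 and −1.07, among them FADS2 (−1.53 and −1.34), ACSS2 (−1.38 and −1.39) and ACLY (−0.98 and −1.17). SREBF1, which encodes SREBP1, went from a median of 133 CPM with siNT to 45.8 with siSF3B1 in DMSO and from 88.3 to 37.6 in 4OHT, changes of −1.52 (adjusted p = 3.99e-22) and −1.18 (adjusted p = 2.21e-18). After siRBM39, 8 of the 8 fell in DMSO and 5 in 4OHT (22.2% and 24.3% of all genes), ACACA, acetyl-CoA carboxylase, among them at −0.81 and −1.02.

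Sterol uptake and trafficking genes were mostly lower after siSF3B1. Of 6 tested, 5 fell and 1 rose in DMSO, and 4 fell and 1 rose in 4OHT. Over all genes, 36.5% were higher in DMSO and 39.4% in 4OHT, with the lower shares as given above. STARD4, a sterol carrier, changed by −0.84 and −0.98, SOAT1, which esterifies cholesterol, by −0.42 and −0.80, and NPC2, which passes cholesterol out of lysosomes, by 0.24 and 0.32. Among the LXR receptors and their efflux targets, NR1H2 changed by 0.27 and ABCA1 by −0.38 in 4OHT. Calls over this list are not counted, because ABCG1 and NR1H3 passed the filter on low counts through 1 group each. ABCG1, a sterol exporter, averaged 11.3 CPM with siNT and 62.8 with siSF3B1 in 4OHT, and it passed the filter through the latter group, with 8915 counts in all other libraries together, so no test of its change is given. NR1H3, which encodes LXRα, had 9658 counts outside the DMSO siRBM39 group and likewise passed through it, and it changed by −1.22 and −1.48 after siSF3B1. In the branch from farnesyl diphosphate to dolichol, prenyl groups and ubiquinone, 1 of 5 genes rose and 3 fell in DMSO and 2 rose and 3 fell in 4OHT, with DHDDS, dolichol synthesis, at −0.90 and −1.20 and GGPS1, geranylgeranyl diphosphate synthase, at −0.90 and −1.06. After siRBM39, uptake genes gave 1 higher and 2 lower in DMSO and 2 higher and 3 lower in 4OHT. The branch gave 0 higher and 4 lower in each treatment. Over all genes, 23.9% were higher in DMSO and 32.2% in 4OHT after siRBM39. These lists are small and their counts unstable: the 3 uptake calls in DMSO became 5 with siRBM39-06 alone and 1 with siRBM39-08 alone, and the 5 in 4OHT became 3 without replicate 2 or 3 and 2 with siNT2 alone.

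**Figure D4:**
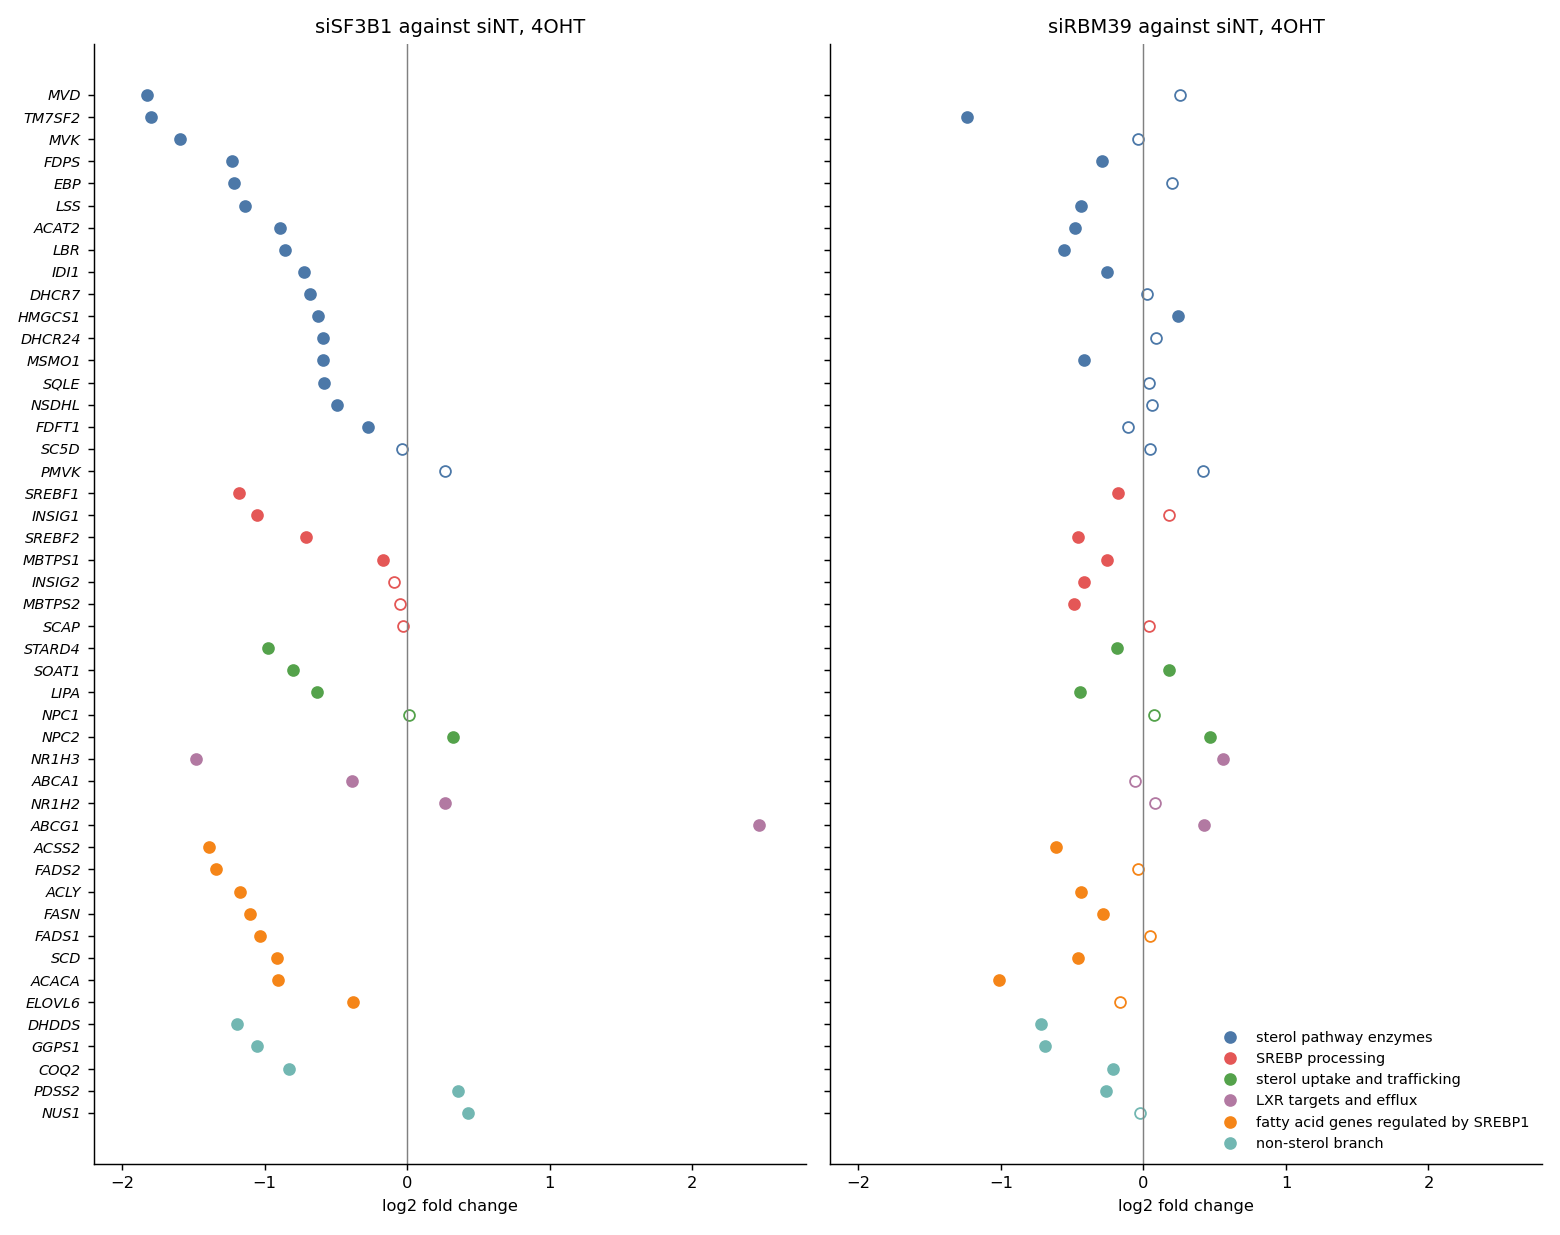
Log2 fold change against siNT in 4OHT for genes of each pathway list, after siSF3B1 and after siRBM39, with filled symbols for genes past an adjusted p of 0.05. CYP51A1 is not drawn, PMVK and SC5D are the open symbols among the sterol enzymes after siSF3B1, and 8 of 8 fatty acid genes lie below 0 as filled symbols. The symbols of ABCG1 and NR1H3 are not read as tests, since each passed the filter on low counts through a single group.

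Splicing of the 8 genes themselves was examined through percent spliced in (PSI), the share of transcripts that include an exon or retain an intron. Of 151 events listed for the genes, 121 had a value in every library, 96 had enough reads, and 12 of these also passed the filters on PSI range and on the balance of reads over both ends of an intron: 6 in SREBF2, 3 in INSIG1 and 1 each in FDFT1, HMGCS1 and SQLE. A call needed an adjusted p under 0.05 (limma on logit PSI over 12921 events) and a difference of at least 5 points. After siSF3B1, 1 of 12 was called in DMSO, beside 20.4% of all events, and 3 in 4OHT, beside 23.8%. The DMSO count was 0 without replicate 4 and 2 without replicate 1 or 3, and the 4OHT count lay between 2 and 4 in such fits. After siRBM39, 1 was called in DMSO, beside 5.65%, and 1 in 4OHT, beside 6.34%. Between 4OHT and DMSO 0 were called by limma, beside 0.913%. At an unadjusted p under 0.05 the last count was 1. The 2 CYP51A1 events in the files were retained introns with PSI of at most 2.38 in every library, under the minimum range, and 1 of them also lacked reads, with as few as 8 in a library.

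After siSF3B1 the called events, among those that passed the balance filter, were single exons that were included less often. The 164-base exon of HMGCS1 at chr5:43292474-43292637 was at 100 in every siNT and siRBM39 library and at 88.4, 95.4 and 98.3 (lowest, median, highest) in DMSO siSF3B1 libraries, a difference of −5.21 points (adjusted p = 3.31e-10), and of −4.63 points in 4OHT, under the minimum. The 100-base exon of INSIG1 at chr7:155302747-155302846 was at 87.8, 94.1 and 98.6 in 4OHT siSF3B1 libraries, a difference of −5.86 points (adjusted p = 1.14e-10), and differed by −1.61 points in DMSO. Most transcripts of both genes still carried these exons. The 71-base exon of INSIG1 at chr7:155303825-155303895 was included rarely, at 6.02, 9.25 and 11.96 in 4OHT siNT libraries and at 0, 2.46 and 4.20 in 4OHT siSF3B1 libraries, a difference of −6.73 points (adjusted p = 3.1e-07). The 110-base exon of SREBF2 at chr22:41897052-41897161 was at 82.4, 97.6 and 100 in 4OHT siSF3B1 libraries and overlapped with siNT, where every library was at 100, with a difference of −5.59 points (adjusted p = 0.0104) read from only 24 to 53 reads per library. Whether any of these events bears on the level of its gene was not tested.

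Retained introns of HMGCS1 were left out of these counts because the reads over their ends were unbalanced in at least 1 library. Those on either side of the 164-base exon were retained more after siSF3B1. The 1253-base intron at chr5:43291221-43292473 was at 0, 1.17 and 4.14 (lowest, median, highest) in DMSO siNT and at 6.64, 13.96 and 17.06 in DMSO siSF3B1 libraries. In 4OHT it was at 0, 0.975 and 2.75 with siNT and at 11.74, 17.7 and 23.6 with siSF3B1. No libraries overlapped, and without the balance filter, which gives 16230 events, the differences were 11.5 points (adjusted p = 7.46e-10) and 16.4 points (adjusted p = 2.26e-12). The 210-base intron at chr5:43292638-43292847 averaged 0.683 ± 0.661 with siNT and 8.19 ± 2.63 with siSF3B1 in DMSO (SD, n = 8), a difference of 7.50 points (adjusted p = 9.52e-13), and 0.519 ± 0.549 and 8.49 ± 1.52 in 4OHT (7.97 points, adjusted p = 5.44e-14). A 383-base intron at chr5:43298135-43298517 went the other way. It averaged 15.2 ± 3.91 in DMSO siNT libraries, 2.11 ± 1.14 with siSF3B1 (a difference of −13.1 points, adjusted p = 3.97e-11) and 8.06 ± 1.80 with siRBM39 (−7.14 points, adjusted p = 0.0143), and 4.96 ± 1.80 in 4OHT siNT libraries (−10.2 points from DMSO, adjusted p = 0.000146). The lowest balance p of these introns in any library was 0.0108, 0.0247 and 0.00112, in the order given, and the part of unbalanced reads in their PSI was not tested.

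After siRBM39 the called event was retention of an 881-base intron of SQLE at chr8:125020872-125021752. It was at 0.53, 1.37 and 2.91 (lowest, median, highest) in DMSO siNT libraries and at 6.72, 10.3 and 14.9 in DMSO siRBM39 libraries. In 4OHT it was at 0.19, 0.98 and 1.69 with siNT and at 6.49, 8.86 and 10.6 with siRBM39. The groups did not overlap, with differences of 8.64 points (adjusted p = 2.07e-10) and 7.66 points (adjusted p = 4.63e-11). After siSF3B1 the same intron differed by 1.27 and 2.50 points, under the minimum, and SQLE mRNA did not pass the test after siRBM39 in DMSO (0.02, adjusted p = 0.835) or 4OHT (0.04, adjusted p = 0.673).

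**Figure D5:**
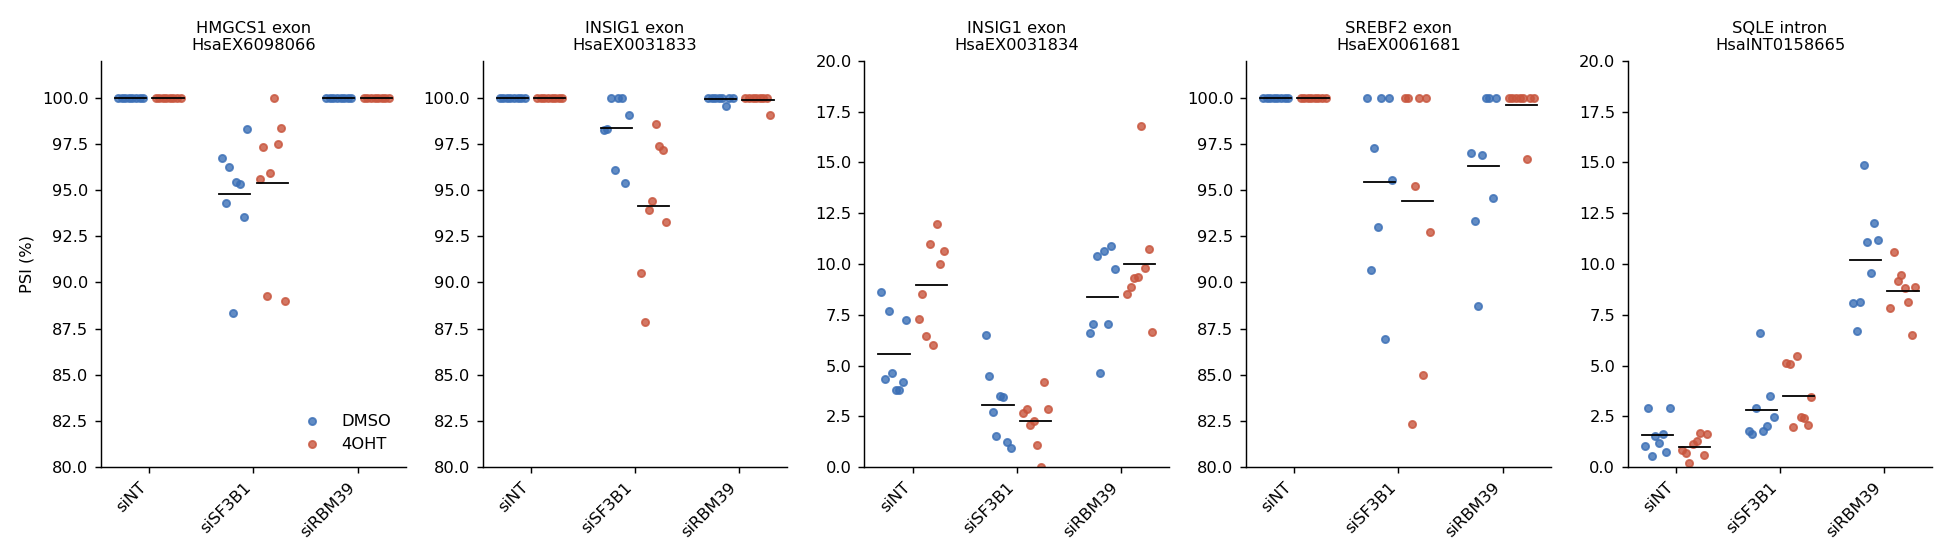
Percent spliced in (PSI) per library of the 5 called events, by siRNA target and treatment, on axes that start at 80 for 3 exons and run from 0 to 20 for the others. The SQLE intron lies between 6.49 and 14.9 in every siRBM39 library and at most at 2.91 in siNT libraries, and the HMGCS1 exon is below 100 only in siSF3B1 libraries.

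CYP51A1 followed a pattern over the 12 siRNA and treatment means that other members shared in part. Of the other genes, SQLE was most like it (Pearson r = 0.943 over 12 means, place 11 of all genes), then HMGCS1 (0.882), INSIG1 (0.848), DHCR7 (0.789), IDI1 (0.737), FDFT1 (0.698) and SREBF2 (0.539). The genes most like it in the table were RBM34 (0.981), PICALM (0.977), ATP5C1 (0.969), IL15RA (0.962) and GOLGA5 (0.959). These are descriptions, since CYP51A1 was chosen for this pattern and the means share libraries and treatments.

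On GRCh38.p14, RefSeq places the genes at these spans: HMGCS1 (ENSG00000112972) on chromosome 5 from 43287470 to 43313412, IDI1 (ENSG00000067064) on chromosome 10 from 1039152 to 1056704, DHCR7 (ENSG00000172893) on chromosome 11 from 71427287 to 71449043, and SREBF2 (ENSG00000198911) on chromosome 22 from 41833105 to 41907305. CYP51A1 (ENSG00000001630) spans 92112153 to 92134803 and INSIG1 (ENSG00000186480) 155297878 to 155310235 on chromosome 7, and FDFT1 (ENSG00000079459) spans 11795582 to 11839298 and SQLE (ENSG00000104549) 124998505 to 125022283 on chromosome 8. The deposited event coordinates are on this build although hg19 is named for the series, since 145 of 151 events lie within the GRCh38 span of their gene and 26 within the GRCh37 span.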

How the data were processed

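Poly(A)-selected RNA of one engineered fibroblast line was sequenced in 48 libraries. The authors used vast-tools with VAST-DB to map reads, merged lanes, and deposited a gene table of counts and of cRPKM (an RPKM corrected for mappable length), and a splicing table with PSI in percent and a read-support score per event. The labels name the build hg19, edgeR and limma, with versions not given in the sources used here. Of 19847 entries, 338 had no counts and 9991 reached 10000 counts in all, a threshold taken from the study's methods and applied here to the deposited table. From the counts, edgeR 4.0.16 (TMM, quasi-likelihood test, R 4.3.3) was fitted over the 6 groups, and over the 12 siRNA and treatment groups for siRNA pairs, with Benjamini-Hochberg adjustment over all 9991 genes. CPM are TMM-scaled. PSI was tested with limma 3.58.1 on logit(0.01 + 0.98 × PSI as a share) over 12921 events with a range of at least 5 points and a read-balance p of at least 0.05. Alternatives included DESeq2 1.42.0, limma-voom, other filters and left-out replicates. The edgeR step was tested on simulated data.

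Groups came from the sample labels, and 0 columns of other samples were present. The study's methods state fewer replicates per siRNA than the 4 in the labels, and the labels were followed. Totals of 31467221 to 52734636 counts per library limit precision little for genes at these levels. Replicate numbers did not pair the samples: deviations of same-numbered samples correlated at a median of 0.0121 over 264 pairs, against -0.00103 over 792 other pairs. Single pairs spread widely, from −0.893 to 0.781 for same-numbered samples and from −0.890 to 0.926 for the others. Some libraries of different groups thus shared deviations, and the source of this was not tested. The closest of 72 replicate pairs had a chi-square of 2.00 per degree of freedom, above sampling noise, and the most distant pair had 583. The genes and the pathway lists were chosen with earlier results of these data known. Named were all 8 genes, SF3B1, RBM39, SREBF1 and, per list and knockdown, up to 3 genes in each direction with the largest change in 4OHT among those past the threshold whose groups did not overlap. Called splicing events and the 5 genes with the highest Pearson r to CYP51A1 were named too, and PMVK and SC5D were named after their values were seen. Some genes counted in the lists are not reported here by name.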

Additional observations from a re-analysis of the deposited data

Results flagged for a closer look

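Each of the 8 genes was examined in each of the 6 groups of 8 libraries, which gives 48 sets. In 2 of these sets a library lay far from the others. The rule flags about 1 in 20 independent sets by chance. That rate need not hold here, since the genes share libraries and each set mixes 2 siRNAs. CYP51A1 in DMSO siNT1 replicate 2 was at 174 CPM, against 190 to 197 in the other 7 libraries, a gap of 0.659 of the range. SREBF2 in 4OHT siRBM39-08 replicate 4 was at 287 CPM, against 210 to 242, a gap of 0.587 of the range. That library also held 34.02 CPM of epithelial markers, of which KRT5 gave 30.2. The part of those transcripts in the SREBF2 level of that library was not tested.

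The difference between the siRNAs of one target changed between treatments for several genes, by a test of that change chosen after the values were seen. For siSF3B1-13 minus siSF3B1-16, the 4OHT minus DMSO change on the log2 scale was 0.56 for HMGCS1, 0.47 for SQLE, 0.53 for IDI1, 0.88 for INSIG1, 0.53 for FDFT1 and 0.46 for DHCR7 (edgeR adjusted p from 6.73e-13 to 3.43e-05). For siRBM39-06 minus siRBM39-08, it was 0.27 for CYP51A1, 0.23 for HMGCS1, 0.14 for SQLE, 0.33 for IDI1, 0.43 for INSIG1, 0.17 for FDFT1 and 0.24 for DHCR7 (edgeR adjusted p from 4.84e-06 to 0.0285). SREBF2 did not pass in either pair. Each siRNA is 1 sequence, so the siRNA and the depletion it gives cannot be told apart.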

How the results depend on the processing

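The 7 calls after siSF3B1 in each treatment held in every alternative run, and CYP51A1 with siSF3B1-13 alone stood at −1.21 in DMSO and −1.46 in 4OHT, further from siNT than with both siRNAs. Over all values of the 8 genes and alternatives, 735 kept direction and call, 29 gained and 23 lost a call, and 35 changed sign. With the replicate block the counts of genes called were 7 and 7 after siSF3B1, 2 and 3 after siRBM39, 5 for 4OHT, 0 and 0 for the treatment contrasts, 6 and 4 for the siSF3B1 pair and 7 and 6 for the siRBM39 pair, and splicing counts were 1, 3, 1, 1 and 0, so the block changed no count. Of the counts of the 8 genes, these moved by over 1.5 times. After siRBM39 in DMSO the count of 2 became 5 with siRBM39-06 alone, 1 with siRBM39-08 or siNT1 alone, and 4 when other groups were left out of the fit. After siRBM39 in 4OHT the count of 3 became 1 with siNT1 or siNT2 alone and 1 to 2 when a replicate was left out (1 without replicate 2). For 4OHT against DMSO, 5 became 3 with siNT2 alone and 8 when other groups were left out. For the siSF3B1 treatment contrast, 0 became 1 (DHCR7) with DESeq2's size factors, DESeq2, limma-voom or without 4OHT siRBM39-08 replicate 4, 5 with siSF3B1-13 alone and 1 with siSF3B1-16 alone, and for siRBM39 it became 2 with siRBM39-06 alone and 1 with siRBM39-08 alone, with or without its replicate 4. For the siRNA pairs in 4OHT, siSF3B1 gave 2 to 4 (2 without replicate 3) and siRBM39 2 to 6 (2 without replicate 2) when a replicate was left out, and siRBM39 gave 4 with no filter. Splicing calls after siSF3B1 in DMSO were 4 without the balance filter, 6 without the minimum difference, 0 at 10 points, 0 with siSF3B1-16 alone and 0 to 2 when a replicate was left out. In 4OHT they were 5, 7 and 0 for the first 3 of these settings. After siRBM39 in DMSO they were 2 without the balance filter, 0 at 10 points and 2 with siRBM39-06 alone, and in 4OHT 2 without the minimum difference and 0 at 10 points. For 4OHT they were 1 without the balance filter. Of the counts over whole pathway lists, members included, sterol enzymes went from 8 to 13 after siRBM39 in DMSO (siRBM39-06 alone) and from 13 to 8 for 4OHT (siNT2 alone). SREBP processing went from 4 to 7 after siSF3B1 in 4OHT (other groups left out) and from 5 to 3 for 4OHT (siNT1 alone). Uptake went after siRBM39 from 3 to 5 (siRBM39-06 alone) or 1 (siRBM39-08 alone) in DMSO, and in 4OHT from 5 to 3 (siNT1 alone, other groups left out, or without replicate 2 or 3) or 2 (siNT2 alone, or siRBM39-08 alone without its replicate 4). Without 4OHT siRBM39-08 replicate 4, the DMSO counts after siRBM39 went from 8 to 9 for sterol enzymes and from 3 to 4 for uptake. SREBP processing went from 5 to 6 in that setting. The LXR list is left out here, since ABCG1 and NR1H3 passed the filter on low counts through 1 group each. The cause of the shifts listed was not tested beyond the fewer samples or events that a setting leaves.

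Changes of sign were among log2 values that were called in neither setting, the largest in size being −0.30 for INSIG1 with siSF3B1-16 alone. After siRBM39 in DMSO these were CYP51A1 −0.12, HMGCS1 −0.18 and SQLE −0.14 with siRBM39-06 alone and INSIG1 0.16 with siRBM39-08 alone. In 4OHT they were CYP51A1 0.0131 with siNT2 alone and 0.0330 with siRBM39-08 alone without replicate 4, SQLE −0.0399 with siRBM39-06 and −0.0107 with siNT1 alone, and DHCR7 −0.0920 with siRBM39-08 alone, −0.0847 without its replicate 4 and −0.000357 when other groups were left out, and leaving out a replicate gave −0.0460 to 0.00390 for CYP51A1. In the siSF3B1 treatment contrast they were HMGCS1 −0.0290 with no filter, −0.22 with siSF3B1-16 and −0.0333 with siNT1 alone, SQLE 0.15 with siSF3B1-13 alone, IDI1 −0.00738 with no filter, −0.19 with siSF3B1-16 and −0.000516 with siNT1 alone, and with siSF3B1-16 alone INSIG1 −0.30, FDFT1 −0.15 and DHCR7 −0.0433. In the siRBM39 treatment contrast they were CYP51A1 0.0939 with siRBM39-06 alone, SQLE −0.00446 with no filter, −0.0738 with siRBM39-08, −0.0221 with siNT1 and −0.0551 with siRBM39-08 without replicate 4, IDI1 −0.14, −0.0314 and −0.0149 in the last 3 of these, FDFT1 −0.0411 with siRBM39-08 alone and −0.0391 without its replicate 4, and DHCR7 −0.000929 with siRBM39-08 alone. Leaving out a replicate gave −0.0140 to 0.0337 for SQLE and −0.0443 to 0.101 for IDI1.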
